A study of Mus musculus with 4 samples.

Results

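The 10 genes described here encode transcription factors of lung mesenchyme, the connective tissue compartment of the organ, outside the Tbx, Nfi, Gli and Fox families. They are 3 basic helix-loop-helix (bHLH) genes (Tcf21, Twist1 and Twist2), 3 homeobox genes (Prrx1, Prrx2 and Meox2), 3 zinc finger genes (Osr1, Zeb2 and Gata6) and Ebf2. Zeb2 encodes a homeodomain beside its zinc fingers, so the label of bHLH and homeobox regulators covers 7 of the 10. The genes were listed by name, and all 10 were found among 21779 protein-coding genes of the mm10 RefSeq annotation. Peaks were taken from 2 HOXA5-FLAG lists when the summit, the highest point of the peak, lay inside a listed gene or within 100 kb of it with no other protein-coding gene nearer. This gave 7 of 4289 peaks in replicate 1 and 2 of 2832 in replicate 2.

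The libraries came from lungs of E15.5 mouse embryos (E gives the embryonic day) with a FLAG epitope on both alleles of Hoxa5 (Hoxa5FLAG/FLAG), immunoprecipitated with a FLAG antibody (2 libraries, 1 peak list each). The sample titles say wt while the genotype label gives the tagged allele. Peak names in the list deposited for replicate 2 contain rep6, and every replicate 2 and shared value here takes that list, as labelled, for replicate 2. The 2 inputs and any untagged control were not analysed here, so a peak cannot be told from a region of high background. Whether the replicates are separate litters or 1 pool of lungs is not in the labels, so the spread between them may be technical. Read depth is unknown. Whole lung was used, so the cell type in which a site was occupied cannot be told.

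HOXA5 is a homeodomain protein made in the mesenchyme of the embryonic lung, and mice without it have malformed airways and lungs. Homeodomains bind short AT-rich sequences, often built on TAAT, and HOX proteins bind many sites together with TALE homeodomain partners. TCF21 and TWIST proteins are bHLH factors that bind DNA as dimers with E proteins at E-boxes, and ID proteins block them by taking up the E proteins.

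No peak of either list overlapped a promoter window of the 7 listed genes that had one. RefSeq windows of 250 bases before to 50 bases after a start site (GRCm38.p6, the mm10 assembly) were at hand for 7 of the 10 genes, in 10 windows. Ebf2, Osr1 and Gata6 had no window, so overlap with their promoters was not checked. The 250 bases before the start are shown for Tcf21, the gene assigned the highest peak, and for Prrx1, whose window held the most copies of the HOX core TAAT but which had no peak. Both are given 5′ to 3′ on the gene's own strand (minus for both), at chr10:22820144-22820393 and chr1:163313651-163313900. The annotated span of Prrx1 runs on to chr1:163315145, so its stretch precedes a start site that lies inside the gene. The outer end of Prrx1 had no window here. Capitals mark TAAT on either strand.
Tcf21: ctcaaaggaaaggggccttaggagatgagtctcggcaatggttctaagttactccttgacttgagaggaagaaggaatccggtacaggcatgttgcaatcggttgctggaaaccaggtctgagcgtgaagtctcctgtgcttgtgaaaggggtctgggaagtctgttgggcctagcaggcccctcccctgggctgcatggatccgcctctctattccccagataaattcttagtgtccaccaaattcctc
Prrx1: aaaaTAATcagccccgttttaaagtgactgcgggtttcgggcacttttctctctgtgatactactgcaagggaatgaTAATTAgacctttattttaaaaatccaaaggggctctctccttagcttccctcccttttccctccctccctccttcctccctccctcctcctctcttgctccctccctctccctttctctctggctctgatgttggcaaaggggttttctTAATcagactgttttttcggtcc
The Tcf21 stretch held 0 copies of TAAT, and that of Prrx1 held 4, of which 2 overlap each other. On either strand, TAAT was found in 7 of the 10 windows, which belong to 4 genes, against 58.0% of all 32851 promoter windows. The paired HOX and PBX sequence TGATNNAT was in 0 of the 10 windows (8.85% of all windows). The PBX and MEIS core TGACAG was in 1, that of Twist2 (19.2% of all), and the E-box CANNTG in 1, that of Meox2 (72.3% of all). TAAT can share letters with TGATNNAT, and the 4 Zeb2 windows lie close together, 2 of them overlapping. These are matches of letters and not binding sites. The bases under the peaks themselves were not used here.

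Peaks found in both replicates were assigned to 2 of the 10 genes, Tcf21 and Ebf2, with 1 shared peak each (shared means an overlap of at least 1 bp). Replicate 1 alone added single peaks near Twist2, Gata6, Meox2 and Zeb2 and a further one inside Ebf2. Twist1, Prrx1, Prrx2 and Osr1 had no assigned peak in either list. Only protein-coding genes were counted. A noncoding gene lay nearer to the assigned peaks of Tcf21, Twist2, Gata6, Meox2 and Zeb2, at distances from 15.4 kb (Gata6) to 77.1 kb (Twist2). Among all protein-coding genes 5.97% had a shared peak by the same rule, 10.4% a replicate 1 peak and 7.58% a replicate 2 peak. The shares for the 10 genes were 20% shared, 60% in replicate 1 and 20% in replicate 2. The stretch from which a peak would be assigned to them had a median of 194 kb (48.7 kb at Prrx2 to 378 kb at Ebf2), against a median of 45.8 kb over all protein-coding genes, and a wider stretch collects more peaks. Per Mb of such stretch they held 1.05 shared peaks, against 0.824 over all protein-coding genes. For replicate 2 the density was 1.05 per Mb against 1.09, and for replicate 1 it was 3.67 against 1.66. The shared and replicate 2 densities rest on 2 peaks each and the replicate 1 density on 7. No test was made on these shares, because the genes are a chosen list.

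**Figure D1:**
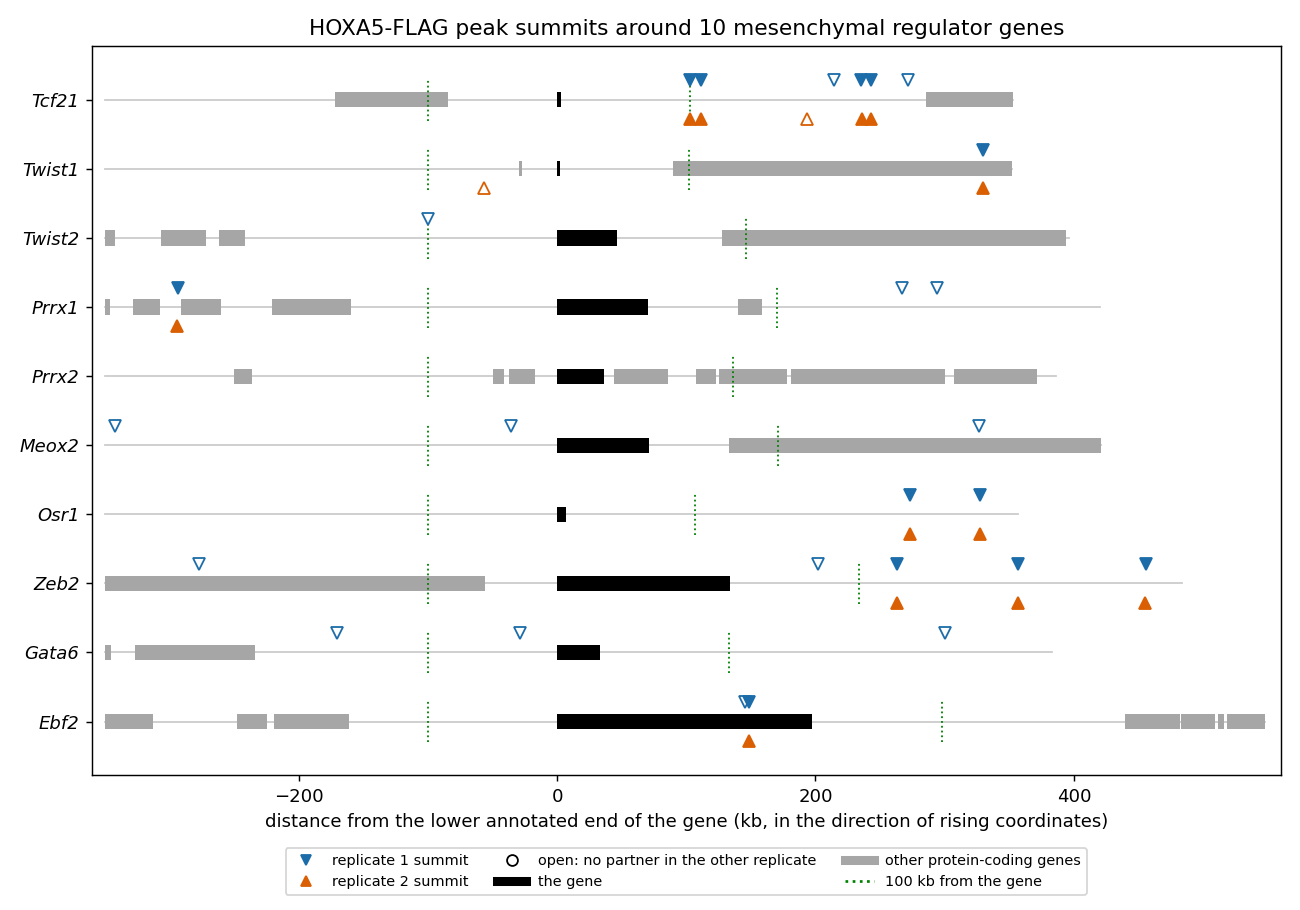
Positions of HOXA5-FLAG peak summits around each of the 10 genes. The horizontal axis is the distance in kb from the lower annotated end of the gene, black bars are the genes, grey bars other protein-coding genes, and dotted lines lie 100 kb from each gene. Downward triangles are replicate 1 summits and upward triangles replicate 2 summits, open where the other replicate has no overlapping peak, and peaks farther out are not drawn. Ebf2 alone has summits inside the gene.

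Among the bHLH genes, Tcf21 had by far the highest peak. Tcf21 is required in mice for the growth and branching of the lung and is made in its mesenchyme. Its peak covered chr10:22919716-22920332 in replicate 1, with 30.9-fold enrichment and a −log10 q of 404, and chr10:22919796-22920308 in replicate 2, with 17.0-fold enrichment and a −log10 q of 185. Both quantities come from the authors' peak caller and rank a peak only against others of the same list. By fold it ranked 10th of 4289 peaks in replicate 1 and 14th of 2832 in replicate 2. Its summits lay 2 bp apart in the 2 lists, against a median of 32 bp over the 2175 shared peaks. The peak lies upstream of Tcf21, 99891 bp from the start site in replicate 1 and 99893 bp in replicate 2, so it falls only just inside the 100 kb limit. No annotated gene of any type held the summit. The nearest was the noncoding RNA gene Gm35126, 56.4 kb away.

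The stretch of 283 kb between Tcf21 and the next coding gene, Eya4, held further peaks. Eya4 encodes a transcriptional coactivator and phosphatase of the Eyes absent family. In all there were 6 peaks of replicate 1 and 5 of replicate 2 in this stretch, forming 4 shared peaks. The second shared peak lay 108 kb from Tcf21, just outside the limit, at 4.62-fold in replicate 1 and 3.21-fold in replicate 2. The other 2 lay nearer to Eya4, at 50.2 and 42.6 kb from it in replicate 1. Their folds were 4.82 and 5.69 in replicate 1 and 4.91 and 4.05 in replicate 2. Of 804 stretches of 200 to 400 kb between coding genes, 2 held 4 or more shared peaks (0.249%), this one included. That size class and the cut-off of 4 were set after these peaks were seen, and the stretch was picked because it holds them. The share therefore does not measure how rare such a stretch is. Position does not say whether any of these peaks acts on Tcf21 or on Eya4.

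**Figure D2:**
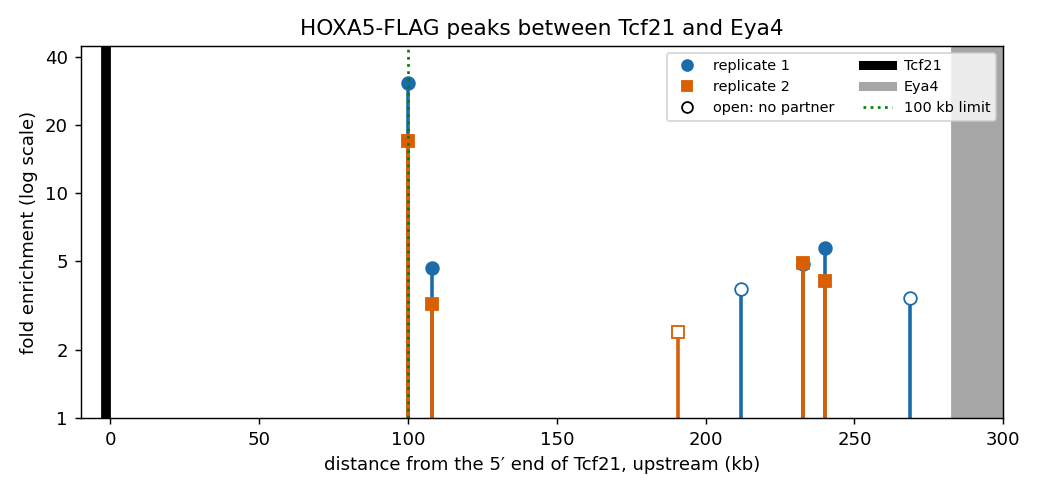
Fold enrichment (log scale) of every peak between Tcf21 and Eya4 against the distance upstream of the 5′ end of Tcf21 in kb. Circles are replicate 1 and squares replicate 2, open where there is no overlapping peak in the other list, and bars at the edges are the 2 genes. The peak at 99.9 kb stands above all others, at 30.9- and 17.0-fold.

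Twist1 and Twist2 are close relatives that act in mesenchyme, and Twist1 can drive the change of epithelial into mesenchymal cells. Twist2 had 1 peak, in replicate 1 only (chr1:91701441-91701797, 5.53-fold, −log10 q 25.7). This fold was higher than that of 78.0% of the replicate 1 list. It lay 99887 bp upstream of the start site, again just within the limit, and the nearest replicate 2 summit was 500 kb from the gene. Twist1 had no assigned peak. The nearest summit was in replicate 2, 56.7 kb away with 2.54-fold enrichment, a −log10 q of 2.68 and no partner. It lay closer to Ferd3l, a related bHLH gene that stands between that peak and Twist1. In replicate 1 the nearest summit was 328 kb from Twist1, inside Hdac9.

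The homeobox genes Prrx1 and Prrx2 act in limb and facial mesenchyme, and neither had an assigned peak. The summits nearest to Prrx1 were 197 kb away in replicate 1 (2.78-fold) and 294 kb away in replicate 2 (2.31-fold), each with other genes nearer. Prrx2 lies in a dense group of genes, with Asb6 16.8 kb and Ptges 8.22 kb away, and the stretch assigned to it was 48.7 kb. The nearest summits were 382 kb from it in both lists. Meox2, a homeobox gene of somites and vessels, had a replicate 1 peak 36.0 kb upstream of its start site (chr12:37072409-37072915, 3.48-fold, −log10 q 8.84). Of the replicate 1 list 60.7% had a higher fold, and the nearest replicate 2 summit was 622 kb from Meox2.

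Of the zinc finger genes, Zeb2 and Gata6 had a replicate 1 peak each and Osr1 none. Gata6, which acts in lung epithelium and in smooth muscle, had its peak 28.4 kb from the lower end of the gene (chr18:11023966-11024245, 3.81-fold, −log10 q 14.0). The nearest replicate 2 summit was 709 kb away. Zeb2 encodes a repressor of epithelial genes such as that of E-cadherin. Its peak lay 68.0 kb upstream of its outermost start site (chr2:45185437-45185891) and was the weakest of the 7, at 2.76-fold and a −log10 q of 5.21, with 83.4% of the replicate 1 list above it by fold. It had no partner in replicate 2.

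Shared peaks lay beyond 100 kb of Zeb2 and Osr1, with these as the nearest coding genes. Upstream of Zeb2 the next coding gene, Acvr2a, is 3697 kb away, and this stretch held 8 shared peaks, 7 of them nearer to Zeb2. The closest was 129 kb from the gene in each list, inside the noncoding gene Vis1, at 4.64-fold in replicate 1 and 4.11-fold in replicate 2. The next was at 223 kb, with 7.61- and 4.32-fold. The highest in replicate 1 lay 1553 kb away (chr2:46670082-46670479) and had 11.4-fold enrichment there and 4.59-fold in replicate 2. The highest in replicate 2 lay 1229 kb away and reached 5.28-fold there, against 4.23-fold in the replicate 1 list. This was a long region, of 3703 bp in replicate 2 and 3557 bp in replicate 1, against list medians of 436.5 and 414 bp. Osr1, a zinc finger gene of early mesoderm that takes part in lung specification in the frog and mouse, had 2 shared peaks. They lay 266 kb (4.53- and 3.61-fold) and 321 kb (8.46- and 6.38-fold) from it, in a stretch of 788 kb before Nt5c1b. The shared peak density was 2.16 per Mb between Zeb2 and Acvr2a and 2.54 per Mb between Osr1 and Nt5c1b. These stretches were picked because they hold such peaks. Of the 20 stretches between the 10 genes and their coding neighbours, 17 held no shared peak, among them the 538 kb on the other side of Osr1, 548 and 234 kb beside Gata6 and 419 kb beside Meox2. Over the genome, 19643 stretches between coding genes held 1278 shared peaks in all, so most of those stretches held none either. The 20 together held 14 shared peaks, or 1.79 per Mb. All 14 lay in 3 stretches, Tcf21 to Eya4, Zeb2 to Acvr2a and Osr1 to Nt5c1b. Some in the first 2 of these were nearer to the neighbour, so this density is not one of peaks assigned to the 10 genes. Over all stretches between coding genes the density was 0.786 per Mb, and over the 28 of at least 3 Mb, that of Zeb2 included, 0.524 per Mb. With no distance limit 4 of the 10 genes were nearest to a shared peak, with 12 such peaks, against 7.54% of all protein-coding genes. Of the 12, 7 were nearest to Zeb2 and 2 to Osr1. The stretches assigned with no limit were not measured, so these shares are not corrected for their length.

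Ebf2, a transcription factor gene known for its part in brown fat and mesenchymal progenitors, was the only one of the 10 with peaks inside its span. It is also the longest of the 10, at 198 kb, followed by Zeb2 at 134 kb, and a longer span can hold more peaks. The share of all protein-coding genes with a peak inside the span is not given here. The shared peak covered chr14:67381368-67381651 in replicate 1 and chr14:67381366-67381636 in replicate 2. Its enrichment was 4.63-fold in replicate 1 (−log10 q 16.4) and 4.55-fold in replicate 2 (−log10 q 16.2), with summits 59 bp apart. A second replicate 1 peak at chr14:67378444-67378768 had 4.06-fold enrichment, a −log10 q of 12.2 and no partner. The noncoding RNA gene 4930438E09Rik also spans both positions. The gene table gives no exons, so exon, intron and untranslated region were not told apart.

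**Figure D3:**
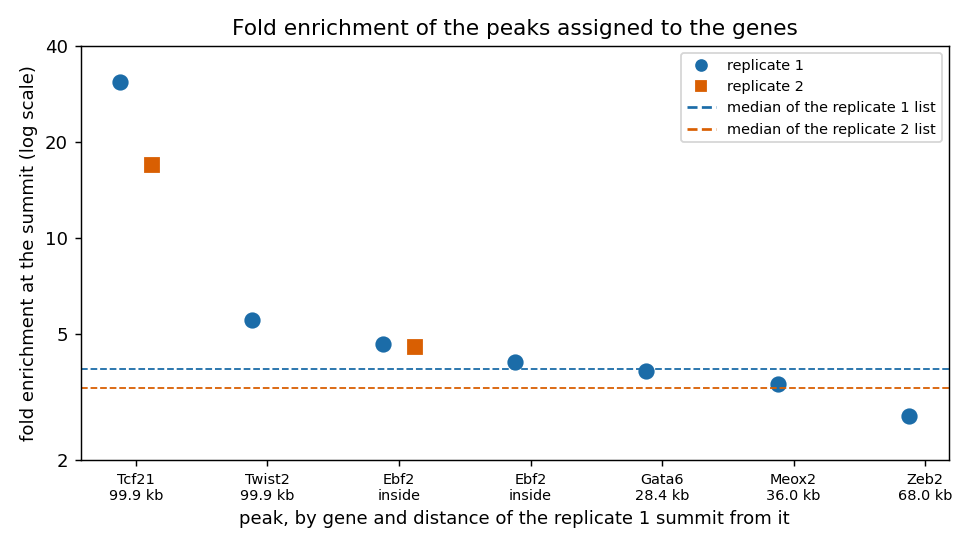
Fold enrichment at the summit (log scale) of each peak assigned to the 10 genes, ordered by replicate 1 fold. Circles are replicate 1 and squares replicate 2, and dashed lines give the median of each list. The Tcf21 peak stands at 30.9- and 17.0-fold, and the other replicate 1 peaks lie between 2.76- and 5.53-fold.

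The median fold of the 7 replicate 1 peaks was 4.06, and that of the 6 without the Tcf21 peak 3.94, against 3.87 over the whole replicate 1 list. The 6 had folds higher than 16.6% to 78.0% of that list. In replicate 2 the Ebf2 peak, at 4.55-fold, was higher than 78.6% of the list, whose median was 3.36. The lengths of the 7 replicate 1 peaks ran from 280 to 617 bp, against a list median of 414 bp. Of these 7 peaks 2 had a partner in replicate 2 (28.6%), against 51.2% of the replicate 1 list. Both replicate 2 peaks had a partner, against 77.6% of the replicate 2 list.

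Genes that work with the 10, or are related to them, were described in the same way. Of 34 such genes 4 had a shared peak (11.8% against 5.97% of all protein-coding genes), 10 had one in replicate 1 (29.4% against 10.4%) and 5 in replicate 2 (14.7% against 7.58%). Their assigned stretches had a median of 111 kb, which is again longer than the 45.8 kb of all protein-coding genes. No density per Mb was computed for the 34 genes. They too are a chosen list, made with earlier results of these data known, and no test was made on their shares. The highest shared peak was near Id4, an inhibitor of bHLH factors, 33.2 kb from the gene (chr13:48227757-48228116 in replicate 1). It reached 9.90-fold in replicate 1, against 6.52-fold in replicate 2, with summits at the same base. Of the 4 Id genes, Id2 also had a peak, in replicate 1 only, 2.67 kb from the gene (3.42-fold). Among the E protein genes, Tcf12 held a shared peak of low fold (2.46 in replicate 1 and 2.35 in replicate 2), Tcf4 a replicate 1 peak (3.33) and Tcf3 none. The Tcf12 peaks overlapped only at their edges (chr9:71971468-71971879 in replicate 1, chr9:71971154-71971497 in replicate 2). The replicate 2 summit lay outside the replicate 1 peak. Its −log10 q was 2.39, near the lowest of the replicate 2 list (2.02). Stricter overlap and −log10 q settings were applied to the 10 genes only.

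Other paralogues differed in whether they had a peak. Zeb1, the relative of Zeb2, held a shared peak inside the gene with enrichment of 2.69 in replicate 1 and 2.79 in replicate 2. Snai1, Snai2 and Snai3 had none. Shox2, a paired-related homeobox gene, had a shared peak 63.0 kb away (3.36- and 3.67-fold) of 1173 bp in replicate 1, while Alx1 and Alx4 had none. Replicate 1 alone gave peaks inside Ebf1 (3.21-fold), Gata4 (4.16-fold) and Zfpm2 (3.51-fold), a cofactor gene of GATA proteins. Ebf1 was the only 1 of 3 listed EBF relatives with a peak. Gata4 and Zfpm2 were the only 2 of 7 listed GATA and cofactor relatives with a peak. Replicate 1 also gave a peak 0.83 kb from Tcf15 (4.74-fold), a bHLH gene of somites. Osr2, Meox1, Msc, Scx, Hand1, Hand2 and Mesp1 had no assigned peak in either list.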

How the data were processed

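The authors deposited 1 peak list for each of the 2 immunoprecipitates. The submitters' processing notes name MACS3 3.0.1 as peak caller software, Bowtie2 2.5.2 as aligner software and mm10 as build, beside SAMtools 1.18, bedtools 2.31.0, deepTools, Trim Galore and FastQC 0.12.1. The sources used here do not give their settings, the peak caller's control or region filters. The deposited fold enrichment is a ratio at the summit, and the deposited −log10 p and −log10 q belong to the same position. The deposited score was not used. Depth is unknown.

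Genes came from RefSeq (GRCm38.p6), and 340 were left out because they start below 3 Mb (chromosome Y excepted), a part of the chromosomes left unsequenced in this assembly, and so seem to carry scaffold positions. Strand and start sites came from the RefSeq promoter table. Summits were assigned with Python 3.11.15 and pandas 2.3.3. A gene was credited with a summit in its span, otherwise the nearest gene end within 100 kb counted. The code was tested on planted peaks. Chains of overlapping peaks were merged at the replicate 1 summit of highest −log10 q. No test was made. All 10 genes are described, and of the 34 related genes all with a peak. Some results for single genes are not reported here. The genes and lists were chosen with earlier results of these data known.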

Additional observations from a re-analysis of the deposited data

How the results depend on the processing

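The counts depended on the distance limit and on the replicate. Shares in brackets are those of all protein-coding genes under the same setting. With a limit of 50 kb, shared peaks remained at 1 gene (5.29%) with 1 peak, replicate 1 peaks at 3 genes (9.33%) with 4 peaks and replicate 2 peaks at 1 gene (6.72%) with 1 peak. With 10 kb or with the nearest gene of any type, each of the 3 counts of genes was 1, that gene being Ebf2, with 2 replicate 1 peaks, 1 replicate 2 peak and 1 shared peak. With 10 kb the shares of all coding genes were 3.95% shared, 7.11% in replicate 1 and 5.12% in replicate 2, and with any gene type 4.50%, 7.92% and 5.77% in the same order. With no distance limit, an alternative chosen after the data were seen, shared peaks were nearest to 4 genes (7.54%) with 12 peaks, replicate 2 peaks to 4 (9.35%) with 12 peaks and replicate 1 peaks to 7 (12.3%) with 22 peaks. Of those 12 shared peaks, 7 were nearest to Zeb2. Taking 1 list alone in place of shared peaks, within 100 kb, gave 2 to 6 genes and 2 to 7 peaks, the higher values without replicate 2. A −log10 q of at least 5 and peaks of at most 1000 bp left all 6 counts as they were, and overlap of at least 50% of both peaks and summits within 100 bp left both shared counts as they were. No paired analysis was possible because the files used here hold values of 1 group, the immunoprecipitates, and none of the inputs that share their replicate numbers. With depth unknown, a gene without a peak may hold a site below the threshold of these lists.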
